A study of Ovis aries with 60 samples.

Results

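The genes that write, copy and remove DNA methylation were followed in ram semen RNA. They are the maintenance methyltransferase DNMT1 and its recruiter UHRF1, the de novo methyltransferases DNMT3A and DNMT3B with their cofactor DNMT3L, and the dioxygenases TET1, TET2 and TET3. They were taken by symbol from the table of gene counts, in which all 8 were found among 28525 genes. RNA was sequenced from the semen of 20 Polypay rams of the F2 generation, and the same rams had whole-genome bisulfite sequencing (WGBS) of semen DNA. The grandsires (F0) of 10 rams had received encapsulated methionine on top of the control diet from weaning to puberty, and the grandsires of the other 10, described as twins of the treated rams, had received the control diet alone. These are called the methionine group and the control group, and a ram is named by its group (M or C) and its number in the labels, such as M382. Methionine was given in the F0 generation alone and not to dams, and the age of the F2 rams at collection is not given in the sources used here. The groups differ in ancestry as well as in diet, since 1 F1 ram per F0 sire was bred. Each F0 sire is represented by 2 rams, so the 20 libraries come from 10 paternal families. Every semen sample went through a wash with somatic cell lysis buffer before RNA was extracted.

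DNA methylation at CG sites is copied after replication by DNMT1, which UHRF1 brings to hemimethylated DNA. DNMT3A and DNMT3B place new methyl groups, and in male germ cells DNMT3L, which has no catalytic activity of its own, helps them to set the methylation pattern before birth. The TET enzymes oxidize methylcytosine as the first step of its removal. Mature sperm transcribe little if any RNA, so that semen RNA holds transcripts left over from spermatogenesis together with those of any other cells in the ejaculate.

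The libraries differed widely in the reads assigned to genes and in the cells they represented. Total counts, which are not all reads sequenced, ranged from 805831 to 13137757 with a median of 3436936, and 5 libraries had fewer than 2000000. Levels are given as CPM, which are counts scaled to a common library total after adjustment by the trimmed mean of M-values (TMM). They are compared between rams for 1 gene and not between genes, since transcript lengths were not at hand. Although the samples are labelled as sperm, markers of leukocytes and of epithelium were detected in every library. So were most genes, since between 21848 and 25447 of the 28525 genes had a count in each library. A count alone therefore does not show that a cell type was present. The 18 leukocyte markers summed to between 263 and 27356 CPM in the methionine group and between 180 and 56952 CPM in the control group. All 18 had counts in all 20 libraries. Of these 18, S100A9 and S100A8 had the highest medians, at 7082 and 2967 CPM, beside 388 CPM for CSF3R as the next. The 18 squamous epithelium markers found, none of them at 0 in any library, summed to between 352 and 48604 CPM and between 261 and 89717 CPM. The 20 markers of spermatids and sperm found, of which SPACA1 was at 0 in some libraries, summed to between 355 and 9732 CPM and between 203 and 8671 CPM. Rams M382 and C485 held the least of the leukocyte and squamous markers and the most of the spermatid markers, whereas ram C350 had the highest leukocyte score. A score is the mean over a list's markers of log2(CPM + 1). The largest sum of leukocyte markers, in ram C468, came with a leukocyte score of 5.46 and with the largest squamous sum. Sum and score thus rank rams differently. The leukocyte score was 5.96 ± 1.49 (SD, n = 10) in the methionine group and 5.89 ± 1.85 in the control group, the squamous score 6.40 ± 1.17 and 6.16 ± 1.22, and the spermatid score 4.78 ± 1.39 and 4.64 ± 1.36. The differences between the groups were smaller than the spread within them. In such bulk samples, fewer cells of a type and less RNA per cell cannot be told apart.

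None of the members differed between the diet groups. Of the 8, DNMT3L did not reach 15 counts in more than 10 libraries and was not tested with the others, so that 7 members were among the 13577 genes tested with edgeR's quasi-likelihood test. Of these genes, 0 (0%) passed an adjusted p of 0.05, which is the threshold for a call throughout, and 104 had an unadjusted p under 0.05. With DESeq2, 0 genes were called and 151 had an unadjusted p under 0.05. Each member's groups overlapped over most of their range, as the plot of levels by diet shows. On simulated counts with the spread of these libraries, the same test recovered 132 of 200 genes changed by 2 on the log2 scale (66%), with 4 false calls. Smaller differences would often have been missed.

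**Figure D1:**
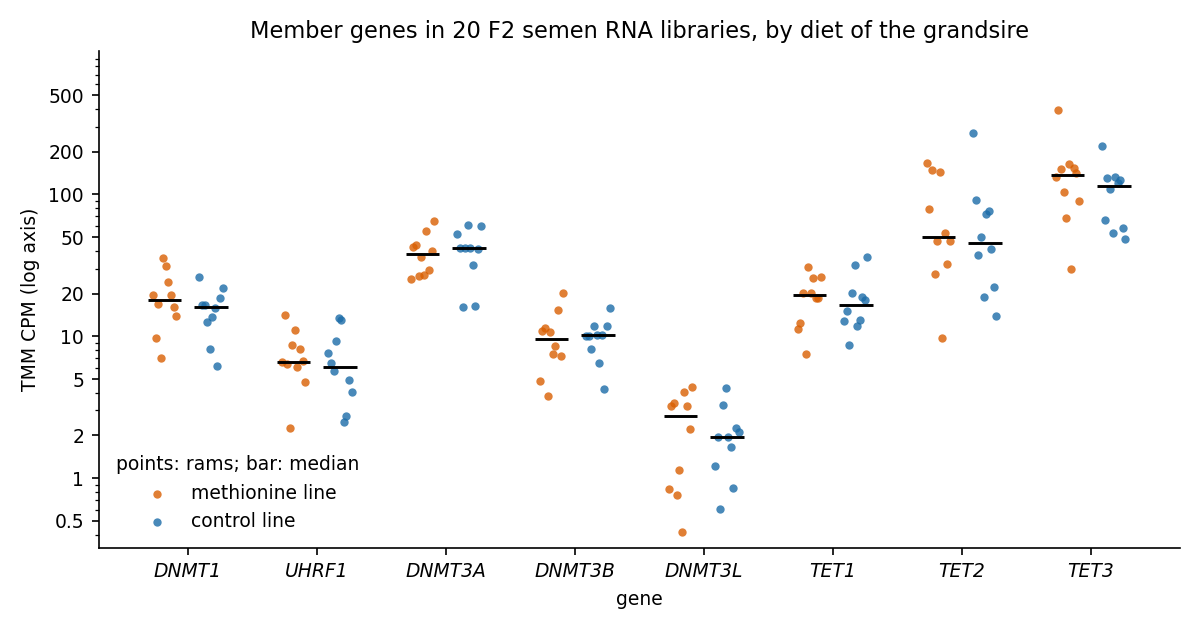
TMM CPM (log axis) of the 8 members in the 20 rams, with 1 point per ram, by the diet of the grandsire. The bars are medians. The groups overlap for every member, the DNMT3L points lie between 0.420 and 4.41 CPM, and the TET2 and TET3 points are the most widely spread, with single high rams at 272 CPM (ram C350) and 396 CPM (ram M323).

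Among the maintenance genes, DNMT1 had 15 to 220 counts per library. Its level was lowest at 6.99 CPM (ram M340), had a median of 18.1 CPM and was highest at 35.8 CPM (ram M359) in the methionine group. In the control group it ran from 6.15 CPM (ram C468) through a median of 16.2 CPM to 26.2 CPM (ram C350). Rams M359 and M372 of the methionine group lay above all control rams, while the lowest rams of the groups were close to each other. The methionine group was higher by 0.31 ± 0.32 on the log2 scale (SE; 95% interval -0.34 to 0.96; adjusted p = 0.9998 from edgeR), and by 0.17 without ram M359.

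UHRF1, which recognizes hemimethylated CG sites and recruits DNMT1 to them, had only 10 to 75 counts, and 15 libraries reached 15 counts. In the methionine group its lowest, median and highest levels were 2.27 CPM (ram M340), 6.61 CPM and 14.2 CPM (ram M323). In the control group they were 2.49 CPM (ram C453), 6.06 CPM and 13.5 CPM (ram C413), so that the groups covered nearly the same range. The log2 difference was 0.15 ± 0.34 (95% interval -0.55 to 0.85). The ratio of UHRF1 to DNMT1 counts within a library had a median of 0.349 and ran from 0.158 in ram C453 to 1.67 in ram C413, where it rests on 25 and 15 counts (95% exact interval 0.845 to 3.40). Intervals of ratios cover counting error only.

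Of the de novo enzymes, DNMT3A had 36 to 252 counts. It ranged from 25.2 CPM (ram M320) to 64.7 CPM (ram M500) in the methionine group, with a median of 37.9 CPM. In the control group it ranged from 16.2 CPM (ram C400) to 60.9 CPM (ram C413), with a median of 41.9 CPM. Rams C400 and C468 of the control group lay below all others, and their libraries had the largest totals and the smallest TMM factors. The diet difference was -0.05 ± 0.32 (95% interval -0.72 to 0.62).

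DNMT3B, the other de novo enzyme, had 10 to 67 counts. Its levels were 3.78 CPM (ram M340), 9.61 CPM and 20.2 CPM (ram M500) as the lowest, median and highest of the methionine group. The control group ran from 4.24 CPM (ram C468) through 10.2 CPM to 15.9 CPM (ram C485) and thus lay inside the range of the methionine group. The difference was 0.00 ± 0.32 (95% interval -0.65 to 0.65).

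DNMT3L, the catalytically inactive cofactor of DNMT3A and DNMT3B, was detected in every library at 2 to 17 counts and reached 15 counts in 1 of them. Its level ran from 0.420 CPM (ram M372) through a median of 2.73 CPM to 4.41 CPM (ram M500) in the methionine group and from 0.606 CPM (ram C400) through 1.95 CPM to 4.31 CPM (ram C413) in the control group. At so few counts the order of rams is uncertain. Fitted without a filter on low counts, its diet difference was 0.21 ± 0.40 (p = 0.606 and adjusted p = 0.99998 from edgeR), and its slopes on the 3 scores and on the CG level were not called either, with adjusted p between 0.634 and 0.906.

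Among the dioxygenases, TET1 had 18 to 190 counts. In the methionine group its lowest, median and highest levels were 7.56 CPM (ram M340), 19.4 CPM and 30.9 CPM (ram M359). In the control group they were 8.68 CPM (ram C400), 16.6 CPM and 36.0 CPM (ram C485). The highest rams of both groups stood little above the next, and the ranges were alike. The diet difference was 0.04 ± 0.31 (95% interval -0.60 to 0.68).

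TET2, best known for its part in blood cell formation, varied most of all members. It ran from 9.70 CPM (ram M382) through a median of 50.1 CPM to 166 CPM (ram M320) in the methionine group, on 24 to 1192 counts. In the control group it ran from 13.97 CPM (ram C485) through 45.8 CPM to 272 CPM (ram C350). The highest library was 28.0 times the lowest, where for the other 6 members tested this ratio lay between 4.01 for DNMT3A and 13.3 for TET3. The low rams were M382 and C485, and C350 was the single ram above 200 CPM. With an SD within groups of 1.25 and 1.23 on the log2 scale, the diet difference of 0.12 ± 0.55 had a 95% interval from -1.01 to 1.25. That interval leaves room for a change of more than 2-fold in either direction. Without ram C350 the difference was 0.68, and without ram M320 it was -0.09.

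TET3, which oxidizes the paternal genome in the zygote, had 74 to 2089 counts. Its lowest, median and highest levels were 29.9 CPM (ram M382), 137 CPM and 396 CPM (ram M323) in the methionine group. They were 48.8 CPM (ram C485), 115 CPM and 218 CPM (ram C350) in the control group. The same rams were low as for TET2, whereas the highest ram was another. The diet difference of 0.43 ± 0.44 was the largest among the members (95% interval -0.48 to 1.34; adjusted p = 0.9998 from edgeR), and without ram M323 it was 0.11.

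Rams that share an F0 sire were not uniformly more alike than other rams. For TET2 the median absolute log2 difference was 0.932 between the 10 pairs with the same sire and 1.21 between the 180 other pairs. For TET3 the medians were 0.799 and 0.845, and DNMT1 and DNMT3A likewise had the smaller median between rams of the same sire. The other 4 members had the larger one there, among them TET1 with 0.850 between rams of the same sire and 0.601 between others, and UHRF1 with 0.782 and 0.656. These are descriptions without a test.

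The question of library composition was asked with the leukocyte, squamous epithelium and spermatid scores as continuous measures. Among the members, TET2 rose with the leukocyte score, TET3 with the squamous score, and both fell with the spermatid score, whereas TET1 ran the other way on the latter 2 scores. On each score the share of the tested members that was called was no larger than that of all genes tested. Ranked by p among the 13577 genes, TET1 was in place 6789 on the squamous score and 7794 on the spermatid score. A slope is the log2 change in level per unit of score. The slopes are drawn with their intervals in the plot of member slopes. The scores are related among themselves: the squamous and spermatid scores had r = -0.81 (rho = -0.75; permutation p = 2e-05 and 0.00026, adjusted p = 0.00015 and 0.00195 over 15 relations; n = 20), and r was -0.69 without the 2 rams with the most extreme squamous scores. The leukocyte and spermatid scores had r = -0.61 (rho = -0.57; permutation p = 0.00458 and 0.0109, adjusted p = 0.0137 and 0.0272), and -0.49 without the 2 rams with extreme leukocyte scores. Slopes on different scores are therefore not separate findings. The squamous score also went with a score of the simple epithelium markers (r = 0.96 and rho = 0.91, without a test). The spermatid score went with a score of spermatogonium and spermatocyte markers (r = 0.84 and rho = 0.75, without a test). A slope on the squamous or spermatid score thus does not single out 1 cell type. Scores and levels also share the TMM factor of each library. Over the libraries that factor went with the spermatid score at r = 0.70 (rho = 0.67; permutation p = 0.0006 and 0.00142, adjusted p = 0.003 and 0.00533), and at 0.65 without the 2 most extreme rams. With the squamous score it went at r = -0.68 (rho = -0.73; permutation p = 0.00104 and 0.00045, adjusted p = 0.0039 and 0.00225), and at -0.69 without the 2 most extreme rams. Depth went with these measures too. The log10 of total counts had r = 0.51 with the squamous score (rho = 0.58; permutation p = 0.0197 and 0.00859, adjusted p = 0.0493 and 0.0258). With the TMM factor it had r = -0.82 (rho = -0.86; permutation p = 1e-05 and adjusted p = 0.00015 for both). With the spermatid score it had r = -0.46 (adjusted p = 0.0922 by permutation) and with the leukocyte score -0.02.

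**Figure D2:**
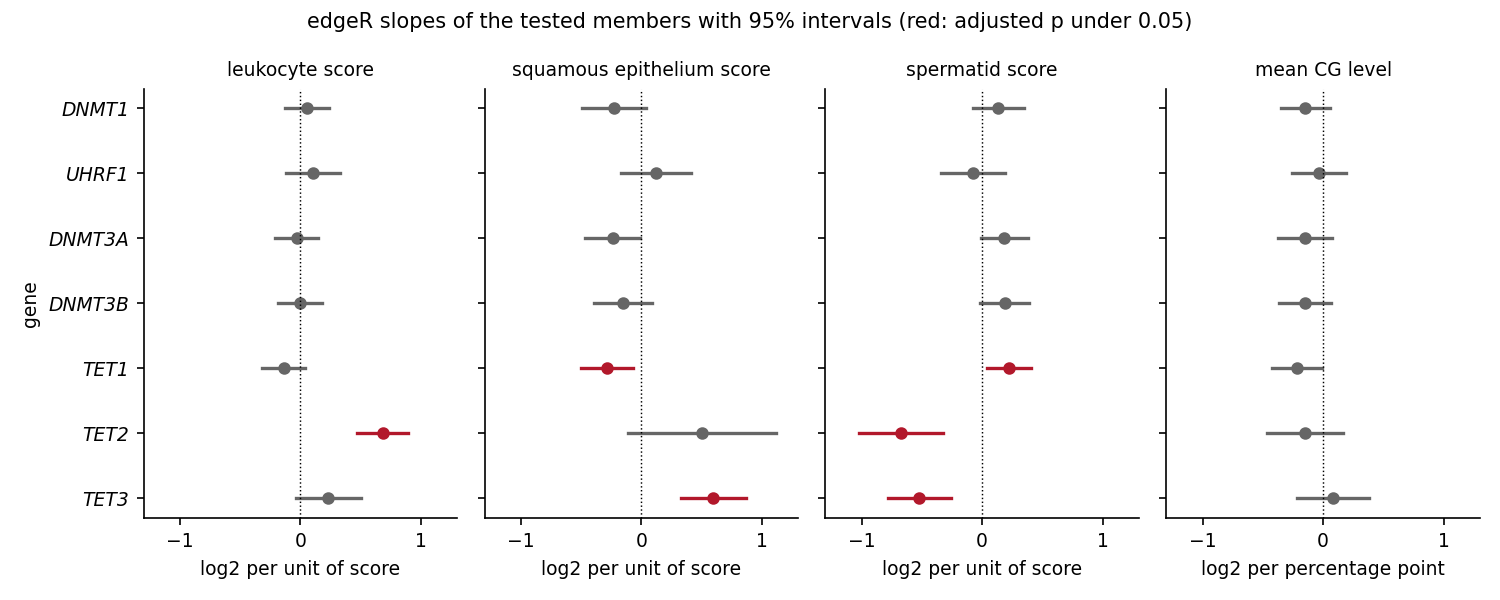
Slopes from edgeR of the 7 tested members, in log2 per unit of each composition score and in log2 per percentage point of mean CG level, with points for the estimate and bars for the 95% interval. Red marks an adjusted p under 0.05, which holds for TET2 on the leukocyte score (0.68), for TET1 (-0.29) and TET3 (0.60) on the squamous score, and for TET1 (0.22), TET2 (-0.67) and TET3 (-0.52) on the spermatid score.

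On the leukocyte score, TET2 was the single member called, where 10.2% of all genes tested were called higher and 13.8% lower. TET2 rose by 0.68 ± 0.10 per unit (95% interval 0.47 to 0.90; adjusted p = 2.13e-05 from edgeR). It was lowest in the rams with the lowest scores, at 13.97 CPM in ram C485 with a score of 3.10 and 9.70 CPM in ram M382 with 3.31, and highest in the ram with the highest score, at 272 CPM in ram C350 with 9.61. Ram M426 was low for its score of 7.80, with 53.4 CPM. Over the 20 libraries r was 0.89 and rho 0.86 (permutation p = 1e-05 for both, the smallest that the resamples can give; adjusted p = 0.000278 and 0.000399 over the genes tested). Without rams C350 and C485, r was 0.83. The slope was called with every single library left out, between 0.65 and 0.72, and with library totals in place of TMM (0.64). With the counts of the 2 rams of a sire summed, it was 0.71 with an adjusted p of 0.130, so the call was not kept with families as the unit. The slope was no smaller there, and calls over all genes fell from 3260 to 572. In such sums the ram with more counts weighs more.

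Other members showed no called slope on the leukocyte score. TET3 had 0.23 ± 0.13 (adjusted p = 0.231 from edgeR), whereas its correlation with the score passed the threshold (r = 0.58 and rho = 0.64; permutation p = 0.00715 and 0.00313, adjusted p = 0.0414 and 0.0377), and r was 0.46 without rams C350 and C485. Without ram M323, in which TET3 stood far above the other rams at a middling score, its slope was called (0.31; adjusted p = 0.0273). DNMT1 had 0.06 ± 0.09, DNMT3A -0.03 ± 0.09, DNMT3B -0.00 ± 0.09 and UHRF1 0.10 ± 0.11. TET1 had -0.14 ± 0.09 with an adjusted p of 0.299. With a score from the summed CPM of the markers, 3 more members were called beside TET2, namely TET3 (0.32; adjusted p = 0.00126), TET1 (-0.18; adjusted p = 0.00699) and DNMT3A (-0.16; adjusted p = 0.0258). That score called 9326 of the 13577 genes tested, a share no smaller than that of the members. It is weighted towards S100A9 and S100A8, the leukocyte markers with the highest CPM. The sum was 56952 CPM in ram C468 and 31475 CPM in ram C400, whose mean-based scores were 5.46 and 4.42. These rams also had the largest squamous sums, of 89717 and 88455 CPM. Ram C350, with the highest mean-based score of 9.61, had a leukocyte sum of 37733 CPM and a squamous sum of 19376 CPM. Which cells the S100A9 and S100A8 counts came from was not tested.

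**Figure D3:**
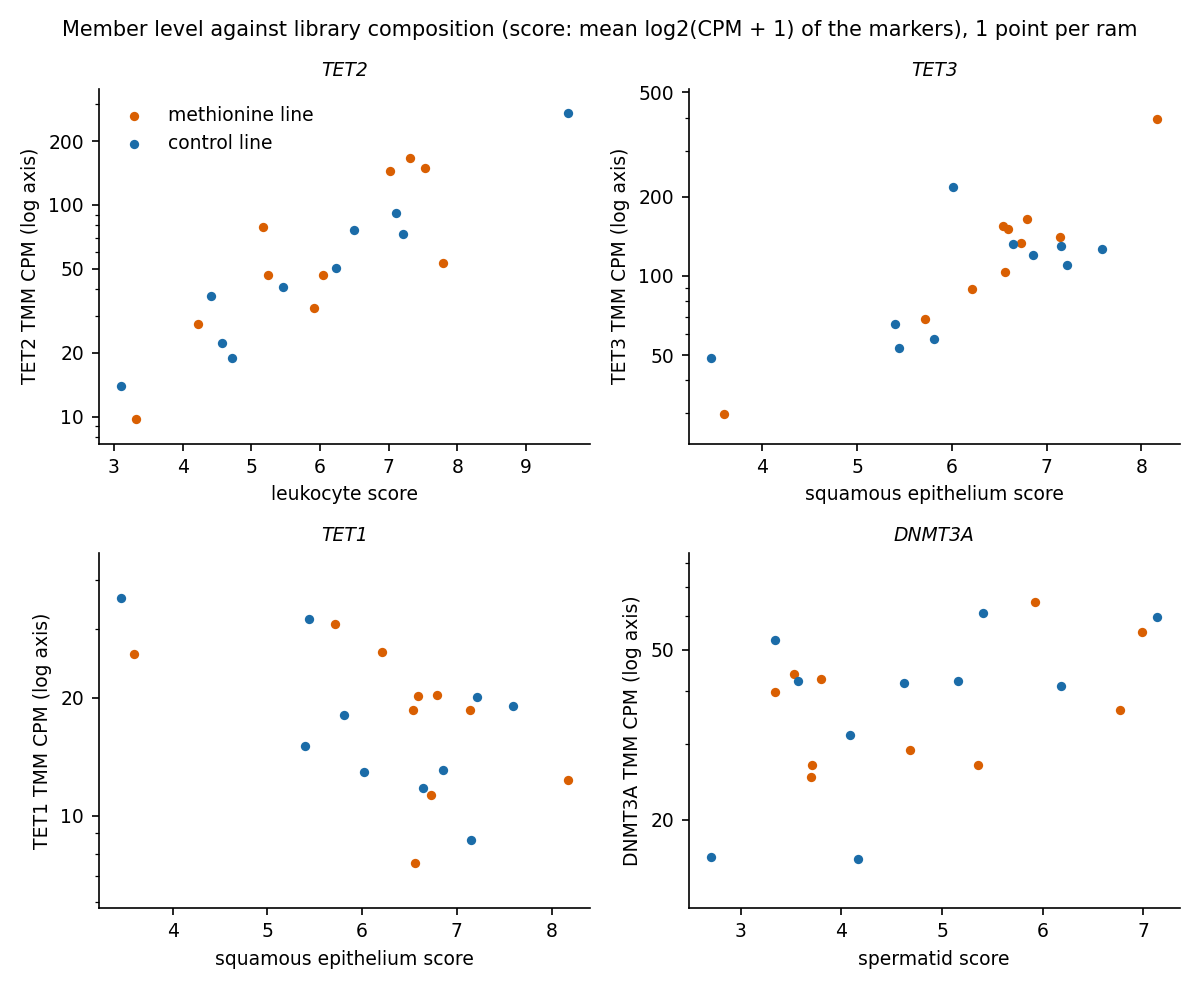
TMM CPM (log axis) of TET2 against the leukocyte score, of TET3 and TET1 against the squamous epithelium score and of DNMT3A against the spermatid score, with 1 point per ram and colours for the diet groups. TET2 and TET3 climb with their scores, from 9.70 and 29.9 CPM in ram M382, while TET1 is highest, at 36.0 CPM, in ram C485 with a squamous score of 3.46.

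Ratios of counts within a library do not depend on its scaling. They do depend on transcript lengths, which were not at hand. A ratio is therefore compared between rams, and a ratio under 1 does not place 1 gene's level below the other's. TET2 had fewer counts than TET1 in rams M382, C485 and C413, with ratios of 0.375 (24 against 64 counts; 95% exact interval 0.224 to 0.608), 0.388 (59 against 152; 0.282 to 0.528) and 0.593 (35 against 59; 0.379 to 0.916). The leukocyte scores of these rams were 3.31, 3.10 and 4.72. At the other end, the ratio was 14.7 in ram M320 (1192 against 81 counts; 11.7 to 18.7) and 21.1 in ram C350 (674 against 32; 14.8 to 31.0), with scores of 7.31 and 9.61. The median over the rams was 3.25. The order was not strict: the ratio was 4.28 in ram C400 with a score of 4.42, and 2.87 in ram M426 with 7.80. The ratio of TET2 to DNMT3A counts likewise ran from 0.176 in ram M382 to 6.59 in ram M320, and that of TET3 to TET1 from 1.16 in ram M382 to 32.1 in ram M323. The ratio of DNMT3A to DNMT1 ran from 0.859 in ram M372 to 7.53 in ram C413.

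**Figure D4:**
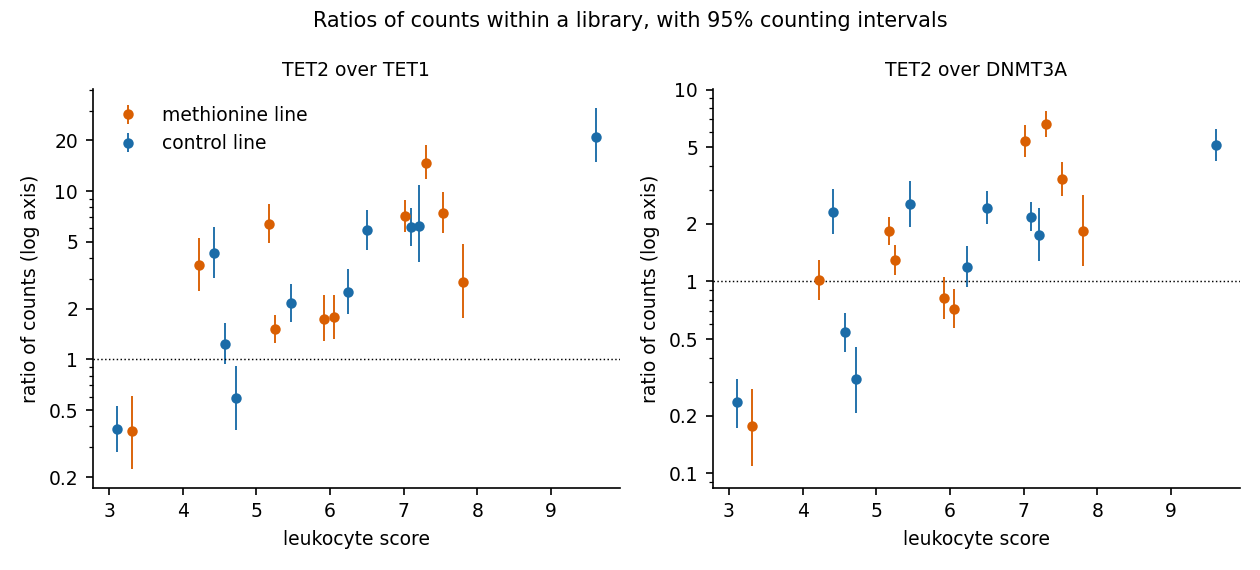
Ratio of TET2 to TET1 counts (left) and of TET2 to DNMT3A counts (right) within each library, on log axes, against the leukocyte score, with 95% exact intervals that cover counting error. The dotted line marks equal counts, which need not be equal levels, since transcript lengths were not at hand. The ratio to TET1 runs from 0.375 in ram M382 to 21.1 in ram C350, with some rams off the trend, such as M426 (2.87 at a score of 7.80).

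On the squamous epithelium score 2 of the 7 tested members were called, beside 29.6% of all genes tested called higher and 28.1% lower. TET3 rose by 0.60 ± 0.13 per unit (95% interval 0.33 to 0.87; adjusted p = 0.000464 from edgeR), with r = 0.83 and rho = 0.65 (permutation p = 1e-05 and 0.00257; adjusted p = 9.68e-05 and 0.00698). It went from 48.8 and 29.9 CPM in rams C485 and M382, whose scores were 3.46 and 3.60, to 396 CPM in ram M323 with the highest score of 8.17. Without rams M382 and C485, r was 0.75. Ram C350 lay above the trend, with 218 CPM at a score of 6.02. The call was kept with families as the unit (0.61; adjusted p = 0.0460) and lost with library totals in place of TMM (0.46; adjusted p = 0.0647) and with the spermatid score in the same fit (0.39; adjusted p = 0.170). The number of all genes called moved with these settings too, from 7834 to 3111 with families as the unit, to 1077 with library totals and to 1485 with the spermatid score in the fit.

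TET1 fell by 0.29 ± 0.11 per unit of squamous score on the log2 scale (95% interval of the slope -0.50 to -0.07; adjusted p = 0.0225 from edgeR), with r = -0.57 and rho = -0.46 (permutation p = 0.00866 and 0.0451; adjusted p = 0.0185 and 0.0728). The call rests on few rams and on the settings. Without ram C485 the slope was -0.26 with an adjusted p of 0.111, and without rams M382 and C485 r was -0.38. It was also lost with library totals (adjusted p = 0.542 from edgeR), with families as the unit (0.288), without a filter on low counts (0.240) and with the spermatid (0.495) or leukocyte score (0.0643) in the same fit. The slope itself was -0.29 with library totals. Over the alternatives run, apart from libraries left out, it stayed between -0.36 and -0.17. With the leukocyte score in the fit, DNMT1 (-0.33; adjusted p = 0.0308) and DNMT3A (-0.27; adjusted p = 0.0494) were called lower instead, in a fit that called 8012 of the 13577 genes tested. DNMT3A had -0.24 ± 0.11 (adjusted p = 0.0676 from edgeR), while its correlation passed (r = -0.56 and rho = -0.55; permutation p = 0.0104 and 0.0133, adjusted p = 0.0216 and 0.0262; r = -0.47 without rams M382 and C485). Without ram M323 the DNMT3A slope was called (-0.31; adjusted p = 0.0341). DNMT1 had -0.23 ± 0.13 and DNMT3B -0.15 ± 0.12. UHRF1 had 0.12 ± 0.14. TET2 had 0.50 ± 0.30 (adjusted p = 0.148), which was called without ram C350 (0.59; adjusted p = 0.0280), and its r fell from 0.51 to 0.08 without rams M382 and C485. Both TET2 (0.48; adjusted p = 0.0399) and DNMT3A (-0.24; adjusted p = 0.0477) were called with DESeq2, and with a score from summed marker CPM (0.34 and -0.16; adjusted p = 0.0280 and 0.0156 from edgeR), where DESeq2 called 8420 and that score 8692 of all genes.

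The spermatid score gave 3 called members of the 7 tested, beside 27% of all genes tested called higher and 35.1% lower. TET2 fell by 0.67 ± 0.17 per unit on the log2 scale (adjusted p = 0.00173 from edgeR) and TET3 fell by 0.52 ± 0.13 (adjusted p = 0.00149). Both were at their lowest in rams M382 and C485, which had the highest spermatid scores of 6.99 and 7.14. The correlations were r = -0.66 and rho = -0.58 for TET2 (permutation p = 0.00171 and 0.00835, adjusted p = 0.00473 and 0.0199) and r = -0.79 and rho = -0.75 for TET3 (permutation p = 4e-05 and 0.00027, adjusted p = 0.000232 and 0.00193). Without rams M382 and C485, r was -0.48 and -0.69. Neither call held with families as the unit, where the slope of TET2 turned to 0.07 (adjusted p = 0.886 from edgeR) and that of TET3 was -0.55 (adjusted p = 0.111). TET1 rose by 0.22 ± 0.09 per unit (adjusted p = 0.0325 from edgeR), where r was 0.49 and rho 0.35 (permutation p = 0.0312 and 0.130, adjusted p = 0.0532 and 0.185), and 0.30 without these rams. The TET1 call was lost without ram M359 (0.20; adjusted p = 0.0719), without ram M382 (0.22; adjusted p = 0.0530) or without ram C485 (0.18; adjusted p = 0.124). DNMT3A had 0.19 ± 0.10 (adjusted p = 0.0952), which was called without ram C350 (0.23; adjusted p = 0.0461). DNMT3B had 0.19 ± 0.10 and DNMT1 0.13 ± 0.10, and UHRF1 had -0.08 ± 0.13.

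These calls changed when another score stood in the same fit. With the leukocyte score, TET3 was still called, whereas TET2 (-0.19; adjusted p = 0.215 from edgeR) and TET1 (0.21; adjusted p = 0.121) were not, and the methyltransferases DNMT1 (0.34; adjusted p = 0.0228), DNMT3A (0.29; adjusted p = 0.0449) and DNMT3B (0.30; adjusted p = 0.0392) were called higher, in a fit that called 7807 of the 13577 genes tested. With the squamous score, in a fit that called 2585 genes, TET2 was the single member called, and TET3 (-0.24; adjusted p = 0.384) and TET1 (0.06; adjusted p = 0.869) were not. The TET1 call was also lost without a filter on low counts (adjusted p = 0.257) and with a score from summed marker CPM (0.0698), and the TET2 call in the libraries of at least 2000000 counts (-0.52; adjusted p = 0.0510).

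Which members were called on the spermatid score depended on the scaling. With library totals alone, used for the levels and for the score, the median slope of all genes moved from -0.05 to 0.32, a shift of 0.37. On that scale DNMT1 (0.41), DNMT3A (0.53), DNMT3B (0.52), TET1 (0.54) and UHRF1 (0.35) were called higher, and TET2 (-0.13) and TET3 (-0.04) were not called, while 9242 of all 13577 genes were. Relative to the median of all genes, TET2 was at -0.62 with TMM and at -0.46 with library totals, TET3 at -0.47 and -0.36, DNMT3A at 0.24 and 0.20, and TET1 at 0.27 and 0.22. These members thus kept their sign relative to the other genes, while UHRF1 did not (-0.03 and 0.02). In the summed counts of families, 0 members and 1847 of all genes were called on this score.

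The members fell into no single pattern across rams. Of the 21 relations between members, computed over 20 libraries that each share depth and scaling across genes, TET2 and TET3 had r = 0.71 and rho = 0.72 (permutation p = 0.00035 and 0.0004, adjusted p = 0.00735 and 0.0084), and r was 0.58 without the 2 rams with extreme TET2. DNMT3A and DNMT3B had r = 0.63 and rho = 0.59 (permutation p = 0.00332 and 0.00694, adjusted p = 0.0349 and 0.0729), of which the latter did not pass, and r was 0.59 without the 2 rams with extreme DNMT3A. No relation of TET1 passed: it had r = 0.55 with DNMT3A, 0.56 with DNMT3B and -0.55 with TET3 (adjusted p = 0.0534 for each by permutation) and -0.41 with TET2 (adjusted p = 0.265). Without the 2 rams with extreme TET1, r was -0.66 with TET3 and -0.67 with TET2. DNMT1 had r between -0.16 and 0.35 with the other members, and with UHRF1 it had 0.21. Without the 2 rams with extreme DNMT1, r was -0.25 with UHRF1 and -0.11 with DNMT3B, where it had been 0.35. Ranked by r among the other genes tested, TET3 was in place 877 for TET2 and TET2 in place 1507 for TET3. DNMT3A was in place 186 for DNMT3B, while DNMT3B was in place 1851 for DNMT3A. UHRF1 was in place 3515 for DNMT1 and DNMT1 in place 2285 for UHRF1.

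For each member the 3 genes with the highest r were picked from all genes tested, and none was another member. Picked as the highest, they could not lie further from a member than its relatives did. For TET2 the 3 genes with the highest r were NFIL3, a transcription factor of lymphoid and myeloid cells (0.94), IFNGR1, a chain of the interferon gamma receptor (0.94), and IL1A, the cytokine interleukin 1 alpha (0.94). For TET3 they were the repressor ERF (0.95), SMAD7, an inhibitor of TGF-beta signalling (0.95), and GATAD2A, a subunit of the NuRD complex (0.95). For TET1 they included CENPF, a kinetochore protein (0.88), and LOC114117957 (0.85). For DNMT3A they were DUSP13, a dual-specificity phosphatase (0.91), TNFRSF25, a death receptor of lymphocytes (0.88), and PKD1L2 (0.88). DNMT3B had EXD2 (0.82), the RNA-binding protein TARBP2 (0.78) and the RNA helicase DDX55 (0.78). Those of the maintenance genes were SIPA1 (0.85), the histone demethylase KDM3B (0.79) and GIGYF2 (0.77) for DNMT1, and D2HGDH, which breaks down D-2-hydroxyglutarate (0.78), PPP6R2 (0.75) and EFCC1 (0.74) for UHRF1.

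The wider machinery of DNA methylation was followed with 42 other genes that recruit, read or remove the mark or work with the TET enzymes. Of these, 41 were found and 38 passed the filter. None of the 38 was called by diet, with a median log2 difference of 0.07 beside -0.05 over all genes tested. On the leukocyte score 4 rose and 4 fell, with a median slope of 0.05 beside -0.04 over all genes. These shares of the list are close to those of all genes tested, of which 10.2% rose and 13.8% fell. Among those that rose were the methyl-CG binding protein MBD1 (0.30 ± 0.08), the stress gene GADD45B (0.64 ± 0.19) and the deubiquitinase USP7 (0.26 ± 0.09). Those that fell were XRCC1, a scaffold of base excision repair (slope -0.40 ± 0.08), MBD3, a subunit of the NuRD complex (-0.70 ± 0.14), the replication clamp PCNA (-0.45 ± 0.12) and ZFP57, which binds methylated imprinted regions (-0.40 ± 0.11). The adjusted p of the genes named here ran from 0.000497 to 0.0328 (edgeR).

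On the squamous score 10 of the 38 rose and 8 fell (median slope 0.17, beside 0.00 over all genes), shares no larger than the 29.6% and 28.1% of all genes tested. With the smallest p, those that rose were GADD45A (0.99 ± 0.17), the histone demethylase KDM2A, which binds unmethylated CG islands (0.89 ± 0.15), ZBTB33, which binds methylated DNA (1.14 ± 0.24), OGT, a sugar transferase that binds TET proteins (1.24 ± 0.29), and the uracil glycosylase SMUG1 (0.39 ± 0.10). Those that fell were MBD3 (-1.10 ± 0.17), UHRF2, the relative of UHRF1 (-0.52 ± 0.10), KDM2B, the relative of KDM2A (-0.42 ± 0.09), ZFP57 (-0.55 ± 0.13) and CXXC4 (-0.44 ± 0.12). On the spermatid score 7 rose and 17 fell (median slope -0.11, beside -0.05), where 27% of all genes tested rose and 35.1% fell. Whether the list differs from the other genes was not tested. Of those that rose, MBD3 had the largest slope (1.19 ± 0.08; adjusted p = 2.53e-11 from edgeR), going from 5.51 to 247 CPM over the libraries. The others with the smallest p were ZFP57 (0.66 ± 0.10), XRCC1 (0.43 ± 0.08), UHRF2 (0.36 ± 0.09) and KDM2B (0.35 ± 0.08). GADD45B (-1.10 ± 0.26), ZBTB33 (-0.86 ± 0.18), GADD45A (-0.77 ± 0.16), KDM2A (-0.65 ± 0.15) and SMUG1 (-0.40 ± 0.08) were among those that fell. UHRF1 itself was not called on any of these scores.

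Markers of dividing cells, in which DNMT1 and UHRF1 are at work, varied less than those of leukocytes and epithelium. The 15 genes of this list summed to between 123 and 254 CPM in the methionine group and between 88.7 and 252 CPM in the control group, and 9 passed the filter. Markers of Sertoli and Leydig cells summed to at most 71.8 CPM in any library and those of lymphocytes to at most 218 CPM. Spermatogonium and spermatocyte markers summed to between 100.3 and 255 CPM, the 6 macrophage markers found to between 47.4 and 2266 CPM and those of simple epithelium to between 54.2 and 11464 CPM. Their part in the levels of the members was not tested.

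The mean CG methylation of the same ram's semen DNA was the last measure set against the members. It is the mean over 122453 CG cytosines, each with at least 10 reads in all F2 rams, and ranged from 68.5% (ram M372) to 73.4% (ram M320). It was 70.9% ± 1.63 (SD, n = 10) in the methionine group and 70.6% ± 1.43 in the control group, a difference of 0.234 points (permutation test, p = 0.732). None of the 7 members tested was called against it, nor was any gene among 13577 (0%), of which 1647 had an unadjusted p under 0.05. With DESeq2, 263 genes were called and 0 of them were members.

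TET1 came closest. Its slope was -0.22 ± 0.10 per percentage point (95% interval -0.42 to -0.01; p = 0.0382 and adjusted p = 0.406 from edgeR). The rams with the lowest TET1, M340 with 7.56 CPM and C400 with 8.68 CPM, had levels of 72.1% and 72.7%. The ram with the highest, C485 with 36.0 CPM, had 70.2%, near the median of 70.3%. Some rams lay off the trend, namely C350 (12.9 CPM at 68.8%), C409 (20.1 CPM at 72.8%) and M480 (18.6 CPM at 73.0%). Over the 20 rams r was -0.53 and rho -0.57 (permutation p = 0.0168 and 0.0101; adjusted p = 0.511 and 0.365 over the genes tested), and r was -0.55 without rams M320 and M480. The slope was negative with every single ram left out, between -0.26 and -0.19. Its unadjusted p was not under 0.05, however, without ram M340, M359, C400, C413 or C449. Nor was it with families as the unit, with a CG level from reads summed over cytosines, without a filter on low counts or in the libraries of at least 2000000 counts. With DESeq2, with library totals, with diet as a covariate or with any other single ram left out, 1 member was under it. The squamous score, on which TET1 fell, went with the mean CG level at r = 0.40 (rho = 0.52; permutation p = 0.0746 and 0.0194, adjusted p = 0.139 and 0.0415), and at 0.51 without the 2 rams with extreme squamous scores. With the squamous score in the same fit the TET1 slope on the CG level was -0.14 ± 0.09 (p = 0.146 and adjusted p = 0.857 from edgeR), and with the leukocyte score as well it was -0.16 ± 0.09 (p = 0.0965).

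**Figure D5:**
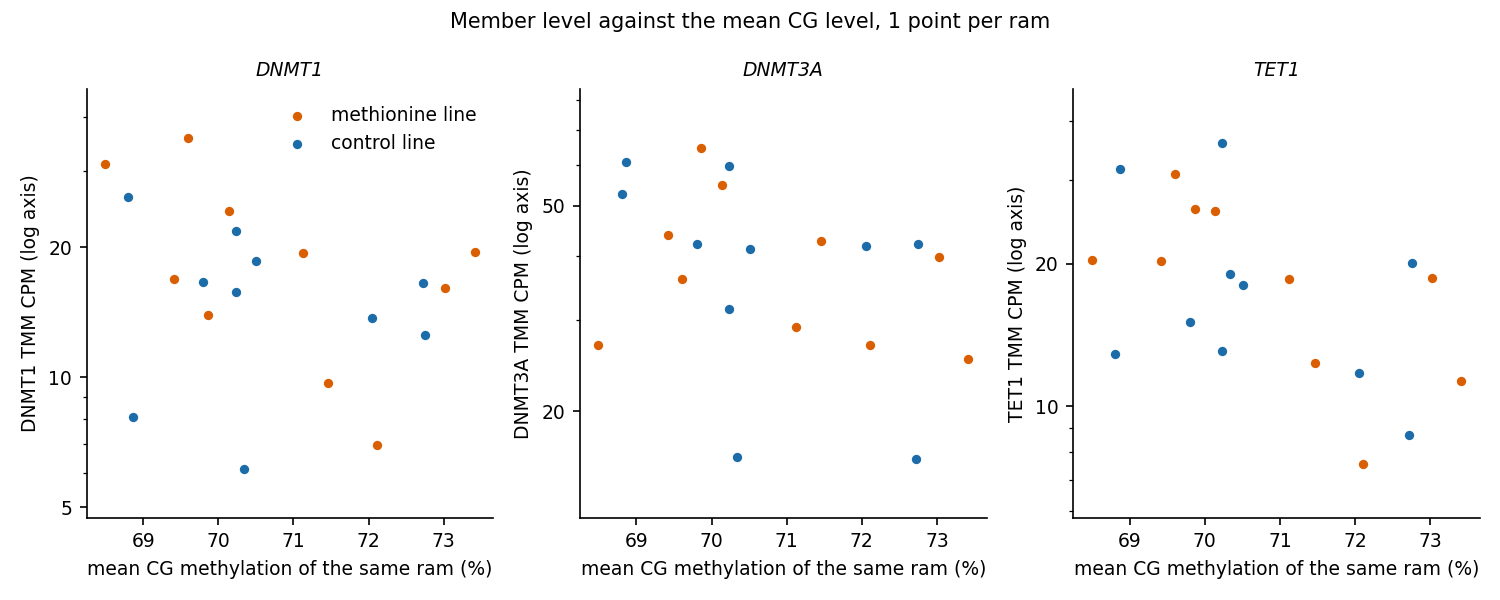
TMM CPM (log axis) of DNMT1, DNMT3A and TET1 against the mean CG methylation level (%) of the same ram, with 1 point per ram and colours for the diet groups. The levels span 68.5 to 73.4%, and TET1 is at 7.56 CPM in ram M340 (72.1%), at 36.0 CPM in ram C485 (70.2%) and at 12.9 CPM in ram C350 (68.8%).

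The methyltransferases had slopes close to each other, of -0.15 ± 0.10 for DNMT1, -0.15 ± 0.11 for DNMT3A and -0.15 ± 0.10 for DNMT3B, with adjusted p of 0.471, 0.491 and 0.476 (edgeR). Spearman's rho was -0.39 for DNMT1, -0.48 for DNMT3A and -0.26 for DNMT3B (permutation p = 0.0895, 0.0368 and 0.262, adjusted p = 0.528, 0.429 and 0.647), where r was -0.28, -0.38 and -0.37 (permutation p = 0.230, 0.0933 and 0.108, adjusted p = 0.617, 0.556 and 0.559). TET2 had a slope of -0.15 ± 0.15, TET3 of 0.08 ± 0.15 and UHRF1 of -0.04 ± 0.11. Single rams moved the first 2 of these: without ram M320 the TET2 slope was -0.38 and without ram C350 it was -0.02, while that of TET3 was 0.16 without ram C350 and 0.03 without ram M323. Beside these, the median slope over all genes was -0.06. Of the 38 other genes of DNA methylation tested, 0 were called and 4 had an unadjusted p under 0.05, namely IDH2, which supplies the TET cofactor 2-oxoglutarate (0.30 ± 0.10), UHRF2 (-0.30 ± 0.11), the RNA methyltransferase TRDMT1 (-0.24 ± 0.09) and ZBTB24 (-0.18 ± 0.09), each with an adjusted p of 0.406 (edgeR). That share is no larger than the 1647 of 13577 among all genes.

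The CG mean itself depends on which cytosines are counted. At the 13449 cytosines with at least 20 reads in every ram, rams M320, C400, C409 and M480 lay between 61.9 and 67.9%, apart from the other 16 rams at 36.9 to 50.7%. No pooled correlation is given for that measure, and with the other 16 rams alone 0 members were called. The same 4 rams have the 4 highest means over the wider set of cytosines, between 72.7 and 73.4%, and so form the upper end of the slopes given above. Of these rams, C400 and C409 share F0 sire 24. The median CG coverage was 12 reads in ram C400, 18 in ram M320, 25 in ram C409 and 26 in ram M480. Over the other 16 rams, 0 members were called on the mean over the wider set and 0 had an unadjusted p under 0.05. There the slope of TET1 was -0.34 ± 0.18, that of DNMT1 -0.36 ± 0.18 and that of TET2 -0.45 ± 0.25, while DNMT3A and DNMT3B had -0.14 ± 0.18 each.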

How the data were processed

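RNA and DNA came from semen of the same 20 F2 rams. The authors trimmed the RNA reads with Trimmomatic and aligned them with STAR to Oar_rambouillet_v1.0. The deposited RNA values are raw counts per gene, and which strand setting was used is not given in the sources used here, so reads of overlapping antisense genes cannot be told apart. The bisulfite reads were trimmed and aligned with Bismark by the authors, and the deposited values are counts of covering and of methylated reads per cytosine, from which methylation levels were computed. WGBS of F0 and F1 was not used.

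Counts were scaled by TMM, and a gene entered the test when over 10 rams had 15 counts or more. Tests were made with edgeR's quasi-likelihood test (version 4.0.16, R 4.3.3), adjusted by Benjamini-Hochberg over 13577 genes, for diet, for the slope on each composition score and for the slope on the mean CG level. DESeq2 (version 1.42.0) was an alternative. Total counts per library of 805831 to 13137757 set the precision. Correlations used log2(CPM + 1) and two-sided permutation tests with 100000 resamples (NumPy 2.4.6). All samples of a group are separate rams, but rams of 1 sire are brothers or half-brothers, so p-values over 20 rams treat relatives as independent. The labels name no batches. In the table, 0 columns belonged to other samples, and 3 keratin symbols were matched by gene ID. On simulated counts the slope test recovered 72 of 200 genes changed by 0.5 on the log2 scale per unit of the leukocyte score (36%), with 2 false calls among 13577 genes.

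Named genes are all 8 members, the other genes of DNA methylation called by diet, at most the 5 with the smallest p per direction for each slope, and the 3 genes with the highest r for each member. For the CG level, the genes named are those with an unadjusted p under 0.05. Some genes that these rules select are not reported here. The members, lists and tests were chosen with earlier results of these data known. Levels per transcript length and the methylation of the members' own genes were planned but not analysed here, since no annotation of the files' genome build was used.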

Additional observations from a re-analysis of the deposited data

Results flagged for a closer look

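For each member and for the mean CG level, the highest and lowest of the 10 rams in each diet group were set against Dixon's 95% critical value for 10 samples, which is 0.466. Chance would flag about 1 group in 20, and 3 of 18 groups had a ram beyond it, all at the upper end and all for TET2 or TET3. In the control group, TET2 was at 272 CPM in ram C350 and at 92.0 CPM in the next ram, a gap of 0.697 of the group's range. TET3 was also highest in ram C350 of that group, at 218 CPM with the next ram at 132 CPM (0.506 of the range). This ram had the highest leukocyte score of all, 9.61. In the methionine group, TET3 was at 396 CPM in ram M323, with the next ram at 165 CPM (0.631 of the range). This ram had the highest squamous epithelium score, 8.17. The critical value assumes values close to normal, and CPM are skewed to the right. On the log2 scale, a comparison chosen after seeing the data, the 3 gaps were 0.365, 0.333 and 0.339 of the range, and no member had a ram beyond the critical value. What part these scores had in the 3 values was not tested beyond the slopes given above.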

How the results depend on the processing

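Diet gave 0 called members and the CG level gave 0 under every alternative run. With library totals and with summed families, the composition scores were recomputed from the same counts and scaling. The alternatives with another score as covariate, without a count filter for slopes, with libraries of at least 2000000 counts, with the rams under the gap in CG level and with the squamous score as covariate of the CG level were chosen after seeing the data. Of the slopes on the leukocyte score, 1 was called; with summed families it was 0 and with a score from summed marker CPM 4. On the squamous score 2 were called, against 4 with DESeq2 and 4 with the summed-CPM score, 3 with the leukocyte score as covariate, 1 with summed families, 1 without a filter, and 0 with library totals or with the spermatid score as covariate. On the spermatid score 3 were called, against 5 with library totals, 4 with the leukocyte score as covariate, 2 each with the summed-CPM score, without a filter and in the deeper libraries, 0 with summed families and 1 with the squamous score as covariate. Calls over all genes moved too. They went on the leukocyte score from 3260 to between 572 (summed families) and 9326 (summed-CPM score). For the squamous score they went from 7834 to between 1077 (library totals) and 8868 (without a filter). For the spermatid score they went from 8427 to between 1847 (summed families) and 9818 (without a filter, where 27658 genes were tested). With single libraries left out, the numbers of members called on these scores ran from 1 to 2, from 1 to 3 and from 2 to 4. For the settings that lower these numbers the cause was not tested, but summed families have fewer samples.

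The diet groups share no replicate numbers that could pair rams. A blocked fit was run with consecutive F0 sire numbers taken as twins by assumption, in which 0 members were called and the DNMT3B diet difference was -0.014.

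Signs turned among values that were not called, apart from TET2 on the spermatid score with summed families (0.067) and UHRF1 on it with library totals (0.35, called there). Diet differences turned with DESeq2 for DNMT3B (-0.054), TET1 (-0.0022) and TET2 (-0.018), with library totals for DNMT3B (-0.073), TET1 (-0.17) and UHRF1 (-0.27), with upper-quartile factors for DNMT3B (-0.075), TET1 (-0.099) and UHRF1 (-0.053), with summed families for DNMT3A (0.0035) and DNMT3B (-0.10), with both scores as covariates for DNMT3A (0.082), and in the deeper libraries for DNMT3B (-0.42) and TET1 (-0.095). The median diet difference over all genes moved too, from -0.05 to -0.10 with DESeq2 and with library totals. Relative to that median, DNMT3B kept its sign with library totals (0.05 with TMM and 0.03). There TET1 (0.09 and -0.06) and UHRF1 (0.20 and -0.17) did not. Leukocyte slopes turned with summed families for DNMT3A (0.31), DNMT3B (0.16) and TET1 (0.17). For DNMT3A and DNMT3B they also turned with library totals (0.036 and 0.11), without a filter (0.0023 and 0.016), with the spermatid score as covariate (0.13 and 0.15) and with the squamous score as covariate (0.056 and 0.056), for DNMT3A in the deeper libraries (0.014), and for DNMT1 with the summed-CPM score (-0.064). Relative to the median of all genes, the leukocyte slopes of DNMT3A (0.01 with TMM and 0.04 with library totals) and DNMT3B (0.04 and 0.12) did not turn. Squamous slopes turned for TET2 with summed families (-0.14) and, with the spermatid score as covariate, for DNMT3B (0.038) and TET2 (-0.19). Spermatid slopes turned for DNMT3B with summed families (-0.082) and, with the squamous score as covariate, for DNMT1 (-0.029) and UHRF1 (0.028). CG slopes turned for UHRF1 with reads summed over cytosines (0.0086), at cytosines with at least 20 reads (0.0011) and in the 16 rams under the gap there (0.020, with DNMT3B at 0.0063), and for TET3 with both scores (-0.033) or the squamous score (-0.10) as covariates. Per 0.01 point of CHG and of CHH level the slopes were 0.096 and 0.11 for DNMT1, 0.0064 and 0.010 for DNMT3B, 0.031 and 0.024 for TET1, 0.12 and 0.18 for TET2 and -0.040 and -0.013 for TET3. The diet difference in mean CG level was -0.136 points at cytosines with at least 20 reads.

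With single libraries left out, diet differences ran from -0.18 to 0.031 for DNMT3A, -0.18 to 0.10 for DNMT3B, -0.064 to 0.20 for TET1, -0.090 to 0.68 for TET2 and -0.0090 to 0.30 for UHRF1. Leukocyte slopes ran from -0.095 to 0.0085 for DNMT3A and from -0.035 to 0.063 for DNMT3B, and the CG slope of UHRF1 from -0.069 to 0.014. Low counts limit DNMT3L, UHRF1 and DNMT3B most. Methylation at the members' own genes and levels per transcript length were not run.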
